A study of Homo sapiens with 29 samples.

Results

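ZNF148 knockdown in growth media and a change to differentiation media without knockdown are 2 routes by which human LHCN-M2 myoblasts were taken toward muscle, and they were compared directly, gene by gene, at 96 h. The comparison used 6 of the 29 arrays of the series: the 3 arrays labelled 96hr siZNF148 Growth media, here called knockdown in growth media, and the 3 arrays labelled 96hr siControl DIFF media, here called control in differentiation media. LHCN-M2 is a line of human skeletal myoblasts immortalized with telomerase and CDK4, and it descends from 1 selected clone that differentiates readily, so every array describes that clone. All cells received 20 nM siRNA, directed at ZNF148 or nontargeting, and were confluent at 96 h. As listed for the screen of the same study, growth media held fetal bovine serum, dexamethasone, hepatocyte growth factor and basic fibroblast growth factor, while differentiation media held insulin and apo-transferrin in place of these. The groups therefore differed in both siRNA and media, and an effect of either one cannot be told apart from the other within these 6 arrays. The labels count the 96 h from transfection, whereas the methods describe pellets taken at 96 h in either media and, for differentiation experiments, a change of media 2 days after transfection. On a plain reading of the methods, the control cells had 96 h in differentiation media, and whether time since transfection was equal in the groups was not stated. The labels call the arrays of a group biological replicates.

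Skeletal muscle differentiation starts when a myoblast leaves the cell cycle and MYOD1 and MYOG, basic helix-loop-helix transcription factors that work with MEF2 proteins, turn on genes of the contractile apparatus. The cells then fuse into multinucleated myotubes in which myosin thick filaments, actin thin filaments and the Z-discs that anchor them assemble into sarcomeres. In culture, this program is usually started by taking away serum and growth factors. ZNF148 is a zinc finger transcription factor that binds GC-rich promoter sequences.

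RNA was measured on 1-colour 60-mer arrays, and each value is a log2 signal, so a difference of 1 is a 2-fold difference. Of the genes on the arrays, 18398 were tested. A gene was called higher or lower when the limma test across all probes gave an adjusted p (Benjamini-Hochberg) below 0.05 and the difference was more than 2-fold. All differences at 96 h are given as knockdown in growth media minus control in differentiation media. Between 48.3% and 55.5% of probes were well above background on these 6 arrays. An array outside the comparison, the first nontargeting siRNA array at 48 h in growth media, stood apart with a median sarcomere signal of 12.19 against 6.13 and 6.33 in the other arrays of its group. It widened the spread that limma shared among groups for muscle genes, so muscle counts are also given from a fit of the other 28 arrays, an alternative chosen after seeing the data.

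ZNF148 itself was lower in the knockdown arrays. Its log2 signal was 6.76, 6.93 and 6.64 with knockdown in growth media and 9.83, 9.79 and 9.70 in control cells in differentiation media. No array of one group reached the other group, and the difference of -3.00 ± 0.14 (SE) was called by limma (adjusted p = 3.09e-13). In the list of 8 genes of ZNF148 and related factors, ZNF148 was the 1 gene called. Of all genes tested, 18.8% were called in either direction. A 95% interval within 2-fold was found for 6 of the 8, among them its close relative ZNF281 at 0.02 and SP1 at -0.25. Of all genes above background on all 6 arrays, 69.4% had such an interval, so these counts do not set the related factors apart.

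Both groups carried the markers of skeletal muscle cells. MYOD1 was at 17, 17.01 and 16.99 with knockdown in growth media and at 17.26, 17.36 and 17.32 in control cells in differentiation media. The groups did not overlap, but the difference of -0.32 lay within 2-fold over its whole 95% interval. Of the 8 myoblast identity genes tested, 2 were called higher, DES, the intermediate filament desmin, at 1.15 and NCAM1, a cell adhesion molecule, at 2.11 (0.71 and not called with normexp background correction), while CDH15, CHRNA1 and MYOD1 were within 2-fold. The probes of PAX7, the satellite cell factor, disagreed, with a difference of 0.21 from the brightest probe tested and -1.44 when probes were averaged. Markers of other cell types had calls in both directions. Of all genes tested, 10.3% were higher and 8.43% lower. In marker lists of 5 to 9 genes, the myoblast identity list included, 1 or 2 calls are too few to be told from these shares. Among 5 adipocyte markers tested, 1 was higher and 1 lower, with median log2 levels of 7.55 to 7.68 with knockdown in growth media and 6.21 to 6.57 in control cells. Among 9 fibroblast markers, 2 were higher, CLEC3B at 3.84 and MFAP5 at 2.15, and 2 were lower, THY1 at -3.85 and FAP at -1.29, with median levels of 8.57 to 8.66 and 7.97 to 8.21. Among 7 endothelial markers, 2 were higher, CLDN5 at 1.33 and VWF at 1.08, and 1 was lower, PECAM1 at -1.56, each of VWF and PECAM1 losing its call without 1 array (VWF at 0.98 without replicate 3 of the control group, PECAM1 at -1.32 without replicate 1 of the knockdown group), with medians of 5.48 to 6.20 and 4.84 to 5.41, and EMCN and KDR were not well above background on any of the 6 arrays. The part of other cell types in the results below was not tested.

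Most genes well above background were within 2-fold between the 2 groups. Of 14363 genes well above background on all 6 arrays, 9966 (69.4%) had a 95% interval of the difference within 2-fold. Of 18398 genes tested, 1903 (10.3%) were higher and 1551 (8.43%) were lower with knockdown in growth media, 18.8% in all. For reference, control cells in differentiation media against control cells in growth media (2 arrays) had 6.81% of genes higher and 8.25% lower. The median difference over all genes was -0.03 and the median absolute difference 0.45, and 5% of genes lay below -1.44 and 5% above 1.89. Across genes, levels correlated at r = 0.944 to 0.95 between arrays of the different groups, at 0.993 to 0.994 among the 3 knockdown arrays and at 0.986 to 0.989 among the 3 control arrays. Between control arrays in differentiation media and in growth media, r was 0.948 to 0.959, and between knockdown and control arrays in growth media it was 0.915 to 0.926. These correlations describe the arrays and share the genes and their probes. The groups did not overlap for 67.3% of all genes tested, so an absence of overlap alone did not single out a gene here. RNA came from whole cultures, so fewer cells of a type and less RNA per cell cannot be told apart.

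**Figure D1:**
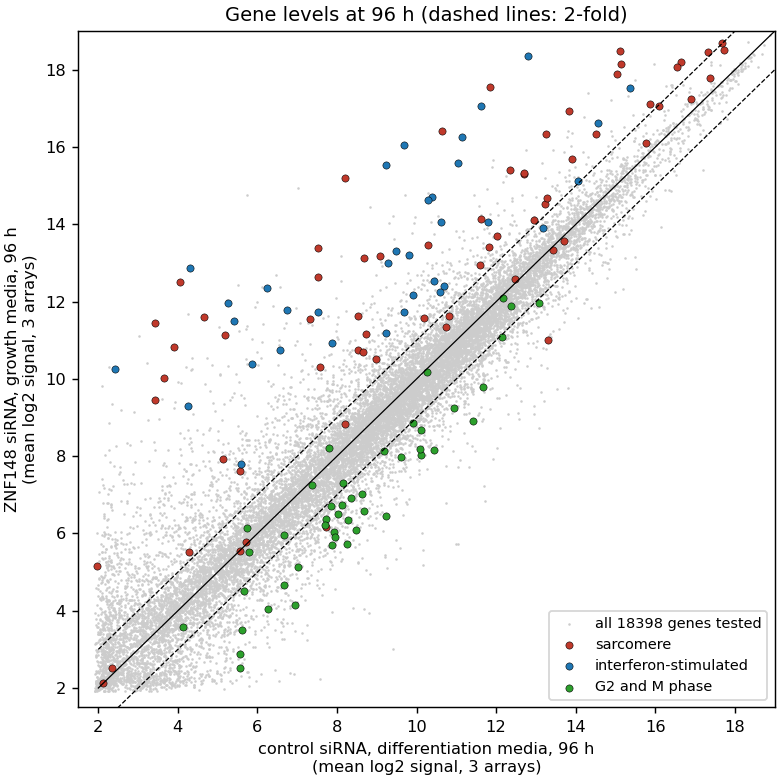
Mean log2 signal of each of the 18398 genes tested at 96 h, control siRNA in differentiation media on the x axis and ZNF148 siRNA in growth media on the y axis (3 arrays each), with the sarcomere, interferon-stimulated and G2 and M phase lists coloured. Most genes lie between the dashed 2-fold lines, the sarcomere and interferon-stimulated genes mostly lie above them, and G2 and M phase genes mostly lie on or below the lower one.

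Of 152 muscle genes tested, 68 were higher and 5 were lower, and 31 were within 2-fold, 22.5% of the 138 that were above background on all 6 arrays against 69.4% of all genes. In the fit of 28 arrays, 86 were higher and 5 lower, against 10.7% and 8.47% of all genes in that fit, and 43 were within 2-fold, as were 70.6% of all genes above background on all 6 arrays. The median difference of the muscle genes was 1.31, or 1.27 with dim genes set to their bound, against -0.03 over all genes. The fit of all 29 arrays called 35 of 66 sarcomere genes higher and 2 lower, and the fit of 28 arrays called 49 higher and 2 lower. Leaving out any 1 of the 6 arrays left 58 muscle genes and 29 sarcomere genes higher. The median sarcomere signal was 13.20 to 13.30 with knockdown in growth media and 10.63 to 11.24 in control cells. Arrays of both groups hybridized on the same slide gave a median sarcomere difference of 1.86, against 1.96 over all 6 arrays.

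**Figure D2:**
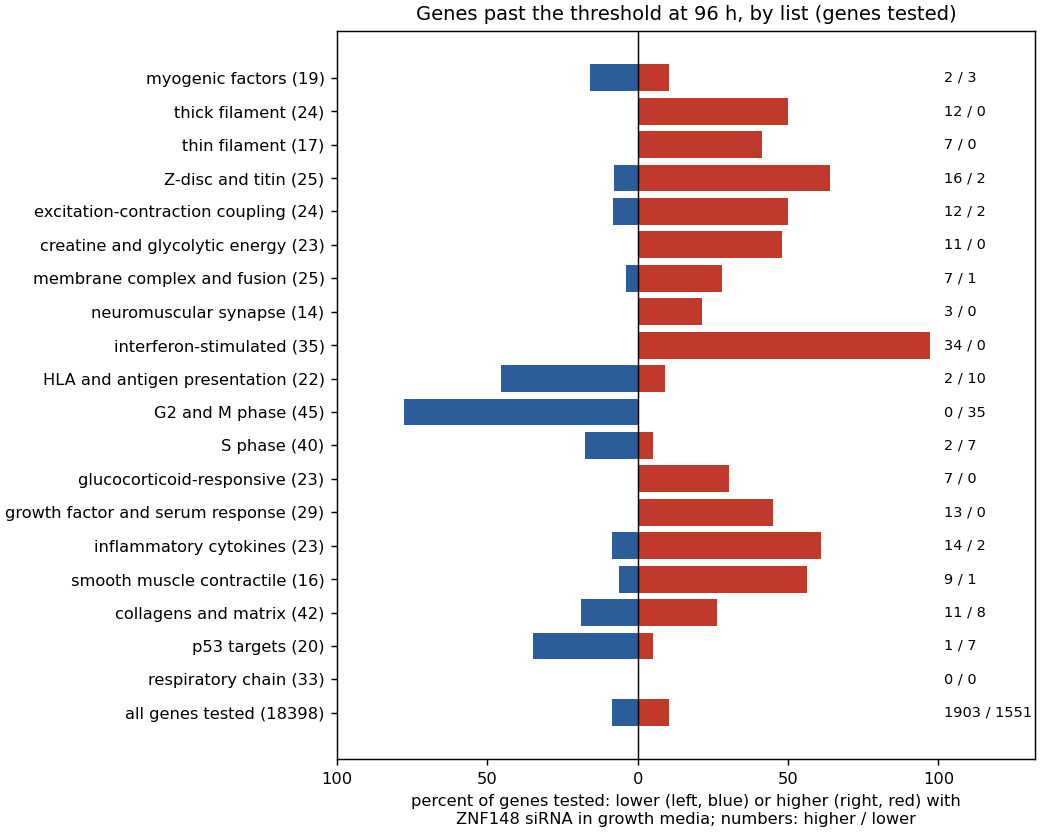
Percent of the genes tested in each list that were called higher (red, to the right) or lower (blue, to the left) with ZNF148 siRNA in growth media than with control siRNA in differentiation media at 96 h, with the counts at the right margin. The interferon-stimulated list reached 97.1% higher, the G2 and M phase list 77.8% lower, and the respiratory chain list is empty on both sides.

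Thick filament genes, which encode myosins and the proteins that bind and fold them, included several of the widest gaps. Of 24 tested, 12 were higher and none lower, and 19 were higher in the fit of 28 arrays. Slow skeletal myosin-binding protein C, MYBPC1, was at 12.46, 12.44 and 12.68 with knockdown in growth media and at 2.43, 3.18 and 6.55 in control cells. The knockdown arrays were close together, whereas the control arrays spread widely, with replicate 3 above the others, and only 1 control array was well above background. The difference was 8.47 ± 1.07 (SE; limma adjusted p = 1.16e-06). The same layout, with 1 control array above background, was seen for MYL3, an essential light chain, at 6.37 and for MYH6, the alpha-cardiac heavy chain, at 6.03. MYH7B, a slow-type heavy chain, was above background on all 6 arrays, at 13.38, 13.34 and 13.47 with knockdown and at 7.22, 7.20 and 8.12 in control cells, a difference of 5.88. SMYD1, a methyltransferase that acts on myosin folding, was alike by either route, at 12.64, 12.63 and 12.48 and at 12.40, 12.56 and 12.45. The groups overlapped, and in the fit of 28 arrays its interval of -0.25 to 0.48 lay within 2-fold.

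Thin filament genes, encoding actins, troponins and tropomyosins, were higher or close. ACTA1, skeletal alpha-actin, was at 17.73, 17.77 and 17.85 with knockdown in growth media and at 17.31, 17.39 and 17.42 in control cells. The groups did not overlap, and the difference of 0.42 did not pass the test (limma adjusted p = 0.81), with an interval of -0.23 to 1.06 in the fit of 28 arrays. Slow troponin T, TNNT1, differed by 0.79 and, in the fit of 28 arrays, by 0.61 to 0.97, within 2-fold. Fast troponin T, TNNT3, was at 16.95, 16.90 and 16.98 against 13.66, 13.74 and 14.07, a difference of 3.12. TNNI2, fast troponin I, differed by 3.07 and TNNC1, the slow calcium-binding troponin, by 2.85. The calls of these 3 troponins were lost whenever any 1 of the 6 arrays was left out, with values that stayed between 2.80 and 3.24, and they were called in the fit of 28 arrays. In all, 7 of 17 thin filament genes were higher and none lower, and 12 were higher in the fit of 28 arrays.

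Z-disc and titin genes split in both directions. Of 25 tested, 16 were higher and 2 were lower. CSRP3, the muscle LIM protein, was at 15.10, 15.25 and 15.28 with knockdown in growth media and at 7.32, 7.66 and 9.58 in control cells, a difference of 7.03. MYOZ1, a calsarcin of fast fibres, differed by 8.02, MYOT, myotilin, by 6.95 and NRAP, an early myofibril anchor, by 6.91. ANKRD2, an ankyrin repeat protein that responds to stretch, went the other way, at 11.06, 10.88 and 11.07 with knockdown and at 13.26, 13.21 and 13.43 in control cells. The groups were far apart, the difference was -2.29 (limma adjusted p = 0.0276), and the call was lost when any 1 of the 6 arrays was left out (-2.34 to -2.23) but held in the fit of 28 arrays at 1.12e-07. The other lower gene was SYNPO2, myopodin, at -1.55. FLNC, filamin C, differed by -0.10, and its 95% interval was within 2-fold.

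**Figure D3:**
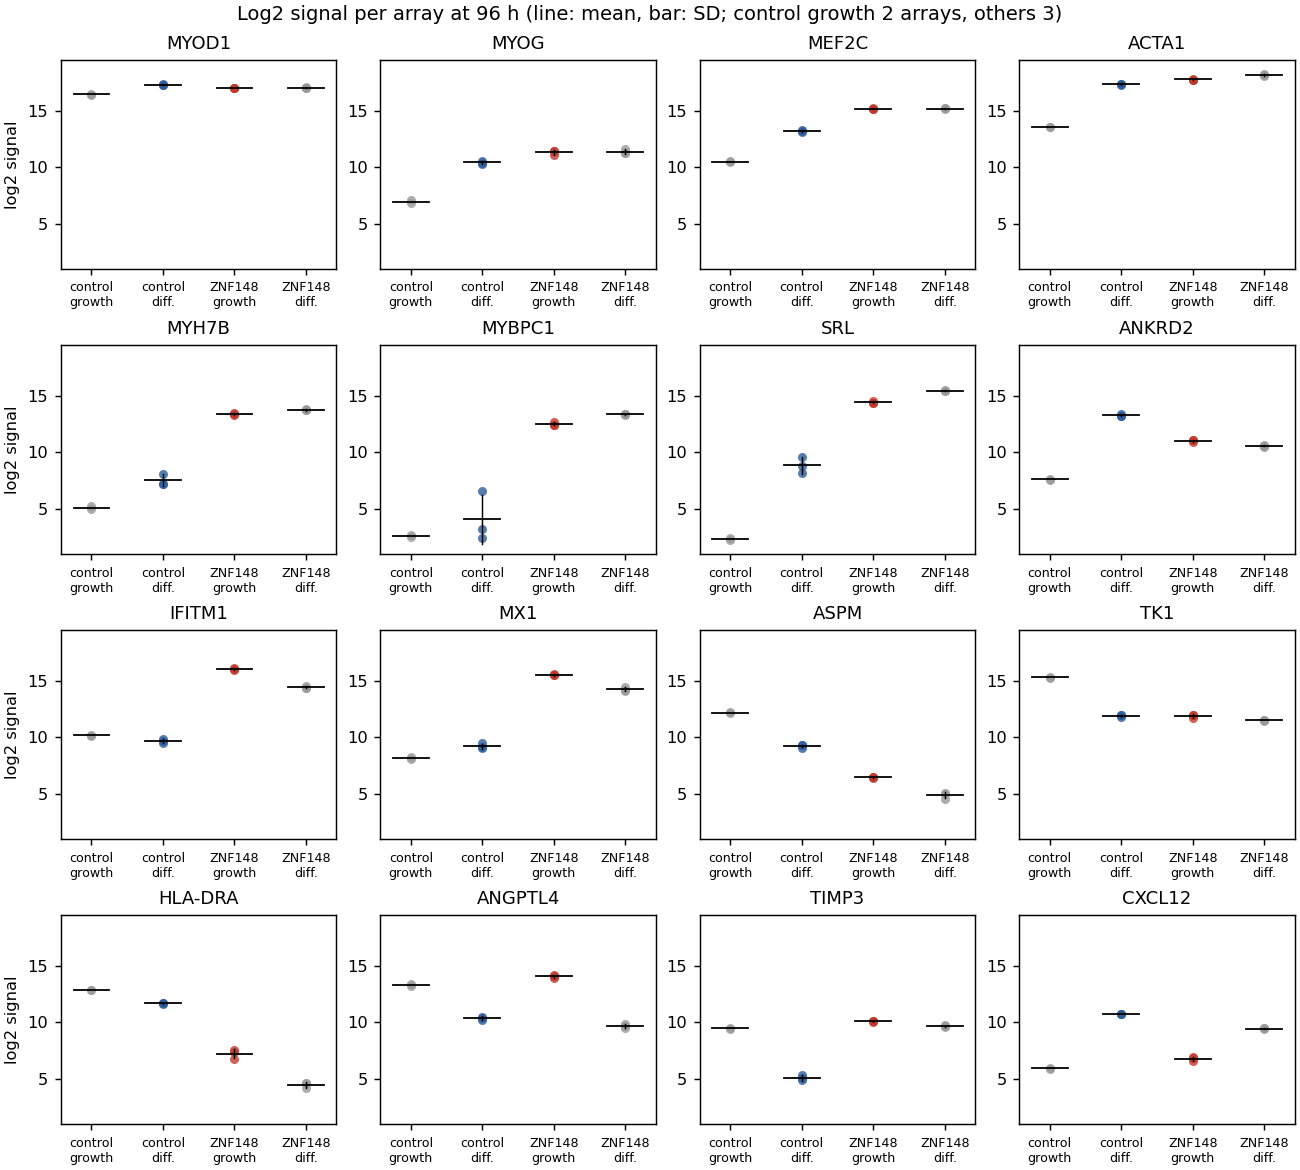
Log2 signal of 16 genes on each array at 96 h, one panel a gene and one point an array, for control siRNA in growth media (2 arrays), control siRNA in differentiation media, ZNF148 siRNA in growth media and ZNF148 siRNA in differentiation media (3 arrays each), with line and bar as mean and SD. MYBPC1, MYH7B and SRL are far higher with ZNF148 siRNA in growth media than in control cells in differentiation media, ACTA1 is at 17.73 to 17.85 against 17.31 to 17.42, TK1 overlaps between the routes, and ANKRD2, ASPM, HLA-DRA and CXCL12 are lower.

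Genes that couple the membrane to calcium release also differed, with 12 of 24 higher and 2 lower. SLN, sarcolipin, an inhibitor of the sarcoplasmic calcium pump, was at 14.68, 14.78 and 14.81 with knockdown in growth media and at 4.01, 4.62 and 8.63 in control cells. The difference was 9.01 ± 1.5 (SE; limma adjusted p = 3.66e-05), with 2 of the 3 control arrays above background. SRL, sarcalumenin, differed by 5.60, TRDN, triadin, by 4.84 and JPH1, junctophilin, by 4.78. The pump itself, ATP2A1, was at 12.46, 12.30 and 12.61 against 12.80, 12.81 and 13.18, and its difference of -0.47 did not pass the test. The adult muscle sodium channel SCN4A was at 5.78, 5.76 and 6.00 with knockdown and at 8.26, 8.48 and 8.42 in control cells, a difference of -2.54 between groups that were far apart, and the inward rectifier potassium channel KCNJ12 was also lower, at -1.88.

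Muscle genes outside the sarcomere and calcium release were also higher in part, beside 10.3% of all genes higher and 8.43% lower. Of 23 genes of creatine and glycolytic energy supply, 11 were higher and none lower, led by CKMT2, mitochondrial creatine kinase, at 5.92, MB, myoglobin, at 5.07 and PYGM, muscle glycogen phosphorylase, at 4.65. Of 25 genes of the membrane complex and fusion, 7 were higher and 1 lower, with DMD, dystrophin, at 1.93 and CAV3, caveolin 3, at 1.60 against SGCA, alpha-sarcoglycan, at 0.18 and within 2-fold. Of 14 neuromuscular synapse genes, 3 were higher, ACHE, LRP4 and AGRN, at 1.58, 1.44 and 1.11, so that share rests on few genes. The receptor subunit CHRNG was at 10.42, 10.57 and 10.56 against 10.34, 10.37 and 10.63, and the adaptor DOK7 was at 15.04, 15.22 and 15.10 against 15.08, 15.24 and 15.16. These groups overlapped, and both genes were within 2-fold in the fit of 28 arrays. That fit placed 16 of the 25 membrane and fusion genes and 9 of the 14 synapse genes within 2-fold. The share of all genes above background on all 6 arrays was 70.6%.

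The myogenic transcription factors, known to act upstream of these genes, divided in both directions. Of 19 tested, 2 were higher (10.5%, against 10.3% of all genes) and 3 lower (15.8%, against 8.43%), with a median difference of -0.08. The groups did not overlap for 17 of the 19, and for 67.3% of all genes. MEF2C was at 15.24, 15.15 and 15.19 with knockdown in growth media and at 13.13, 13.25 and 13.28 in control cells. Its difference of 1.97 passed the test (limma adjusted p = 0.0197), lost the call without replicate 1 of the control group at 1.93, and was called in the fit of 28 arrays with an interval of 1.68 to 2.26. MYF6, the latest of the MYOD1 family to appear, was higher at 1.48. MYOG, myogenin, was at 11.44, 11.07 and 11.45 against 10.38, 10.33 and 10.57, groups that did not overlap, and its difference of 0.89 did not pass (limma adjusted p = 0.27), nor did it reach 2-fold in the fit of 28 arrays (0.25 to 1.54). HES6, a promoter of differentiation, differed by 1.17, was not called with all 29 arrays (limma adjusted p = 0.178) and was called in 6 of 21 alternatives, the fit of 28 arrays among them. SOX8, PAX3 and MEF2B were lower, at -1.79, -1.41 and -1.05.

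A sequence set is shown for 2 sarcomere genes with large differences, chosen because their promoters hold the E-box CAGCTG, the core that MYOD1 family proteins bind. In the 250 bases before the first listed gene start (RefSeq, GRCh38.p14), CAGCTG was found on either strand in 15 of the 48 sarcomere genes with a promoter entry (31.2%) and in 13.8% of the 27305 promoters searched. The same letters were found in 7 of 27 interferon-stimulated genes with an entry (25.9%). A match describes these letters and not a site in use. The sequences run 5′ to 3′ on the gene's strand with the match in capitals, for MYBPC1 at chr12:101594721-101594970 on the plus strand, positions -216 to -211 from the start, and for MYOT at chr5:137867610-137867859 on the plus strand, positions -36 to -31.
MYBPC1: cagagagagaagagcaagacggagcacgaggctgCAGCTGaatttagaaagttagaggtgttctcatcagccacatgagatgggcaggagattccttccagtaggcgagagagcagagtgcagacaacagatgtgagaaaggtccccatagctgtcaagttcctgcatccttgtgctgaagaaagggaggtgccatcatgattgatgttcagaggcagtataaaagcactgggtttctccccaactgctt
MYOT: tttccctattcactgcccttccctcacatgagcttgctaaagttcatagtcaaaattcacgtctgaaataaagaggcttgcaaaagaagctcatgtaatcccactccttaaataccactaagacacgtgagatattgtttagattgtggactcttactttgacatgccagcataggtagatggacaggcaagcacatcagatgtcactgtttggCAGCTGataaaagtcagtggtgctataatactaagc

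Of all lists examined, the interferon-stimulated genes had the highest share called. These genes are the usual response to type I interferon or to foreign nucleic acid in the cell, and encode proteins that block viruses. Of 35 tested, 34 were higher with knockdown in growth media and none was lower, with a median difference of 4.19. The groups did not overlap for any of the 35, against 67.3% of all genes without overlap. The list median was 12.71 to 13.07 on the knockdown arrays and 9.62 to 9.88 on the control arrays in differentiation media. Arrays sharing a slide gave a median difference of 4.12.

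IFITM1, a membrane protein that hinders viral entry, was at 16.15, 16.05 and 15.95 with knockdown in growth media and at 9.68, 9.48 and 9.89 in control cells. All knockdown arrays stood far above all control arrays, by 6.37 ± 0.31 (SE; limma adjusted p = 5.98e-13). The dynamin-like GTPase MX1 was at 15.64, 15.50 and 15.49 against 9.15, 9.06 and 9.48, a difference of 6.31, and MX2 differed by 6.71. BST2, tetherin, which holds budding virus at the membrane, was at 13.07, 12.85 and 12.71 against 3.91, 4.05 and 4.94, with 2 of 3 control arrays above background. RSAD2, viperin, was not well above background on any control array and was at least 71.3-fold higher with knockdown. The smallest differences were those of PARP9 at 1.66, of the signalling factor STAT2 at 1.06 and of USP18, a negative regulator of the pathway, which did not pass the test at 0.73 (limma adjusted p = 0.0811). BATF2, a transcription factor outside the list, was among the 10 largest differences at 6.30.

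Promoters of 2 of these genes are shown because the ISRE core GAAANNGAAA, the element read by interferon-activated STAT and IRF factors, lies in them. It was found on either strand in 16 of the 27 interferon-stimulated genes with a promoter entry (59.3%) and in 3.07% of the 27305 promoters. IFITM1 is at chr11:313790-314039 on the plus strand with the match at -40 to -31. BST2 is at chr19:17405631-17405880 on the minus strand, and 2 overlapping matches run from -130 to -115.
IFITM1: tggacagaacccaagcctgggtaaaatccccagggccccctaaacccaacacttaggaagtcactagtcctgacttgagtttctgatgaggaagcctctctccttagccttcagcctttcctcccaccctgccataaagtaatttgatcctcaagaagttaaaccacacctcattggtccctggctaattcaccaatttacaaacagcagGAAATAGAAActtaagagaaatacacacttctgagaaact
BST2: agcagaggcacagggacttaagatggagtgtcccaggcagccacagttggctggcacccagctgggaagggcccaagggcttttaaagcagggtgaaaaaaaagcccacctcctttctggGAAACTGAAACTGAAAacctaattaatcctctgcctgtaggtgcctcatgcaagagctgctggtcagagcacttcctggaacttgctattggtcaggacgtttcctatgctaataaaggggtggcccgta

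Genes of the HLA and antigen presentation list were lower, higher or within 2-fold. Of 22 tested, 10 were lower and 2 higher, and 10 of the 19 that were above background on all 6 arrays were within 2-fold. The 10 lower genes, named here after their values were seen, were HLA-DOA, HLA-DRA, HLA-DQA1, HLA-DMB, HLA-DPA1, HLA-DPB1, HLA-DRB1, HLA-DMA, CD74 and CIITA, all known as parts of, or the regulator of, the class II pathway that presents outside antigens. HLA-DRA was at 6.75, 7.52 and 7.39 with knockdown in growth media and at 11.69, 11.72 and 11.67 in control cells, a difference of -4.47 ± 0.18 (SE; limma adjusted p = 3.93e-14). HLA-DOA was lower at -4.89 and HLA-DMB at -4.14. HLA-C and HLA-E, which present antigens made inside the cell, differed by 0.21 and -0.14 and were within 2-fold. The 2 higher genes were the peptide transporter TAP1, at 15.07, 15.04 and 14.92 against 13.57, 13.43 and 13.58, and NLRC5, a regulator of class I genes, whose difference of 1.06 fell below 2-fold without replicate 2 of the knockdown group (0.99) or without replicate 1 of the control group (0.96).

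Genes of the late cell cycle were lower with knockdown in growth media. Of 45 genes of G2 and M phase, 35 were lower and none higher, with a median difference of -1.61. The list median was 6.44 to 6.63 on the knockdown arrays and 8.04 to 8.24 on the control arrays. ASPM, a spindle pole protein, was at 6.50, 6.48 and 6.38 with knockdown and at 9.09, 9.29 and 9.28 in control cells. The groups were well apart, at -2.76 ± 0.15 (SE; limma adjusted p = 3.61e-12). The kinesin KIF14 was lower at -2.79. CDC25C, the phosphatase that starts mitosis, and the kinase NEK2 were not well above background on any knockdown array, and were at least 3.52-fold and 3.51-fold lower. With normexp background correction, which adds an offset to every signal, their differences were -0.64 and -0.62 and neither was called. KIF23, a kinesin of cytokinesis, was at 10.18, 10.24 and 10.14 against 10.22, 10.34 and 10.26, within 2-fold, as were UBE2S and ECT2. Signals of this list were low, and background correction by normexp left 23 of the 45 genes lower, against 4.85% of all genes with that correction.

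S phase genes were closer together. Of 40 tested, 2 were higher (5%) and 7 lower (17.5%), against 10.3% and 8.43% of all genes. Of the 38 above background on all 6 arrays, 24 were within 2-fold (63.2%, against 69.4% of all genes). TK1, thymidine kinase, was at 11.97, 11.99 and 11.72 with knockdown in growth media and at 11.95, 11.99 and 11.80 in control cells, values that overlapped and differed by -0.02. MCM7, a subunit of the replicative helicase, was lower at -1.68, TYMS, thymidylate synthase, at -1.46 and PCNA, the polymerase clamp, at -1.18. GINS3, a subunit of the replication fork complex GINS, was just past 2-fold at 1.03 and fell under it at 0.98 without replicate 1 of the control group and at 0.99 without replicate 2 of the knockdown group. Of 17 genes among the CDK inhibitors, cyclins and pocket proteins, CDKN1A, the inhibitor p21, was higher at 1.24, while cyclin D2, CCND2, at -2.17 and CDK4 at -1.26 were lower, and RB1, CDKN1B and CCND1 were within 2-fold. CDK4 is also a transgene in this line, and the share of its signal that comes from the transgene was not tested. Replication-dependent histone genes split, with 13 of 50 higher and 7 lower and a median of 0.00, with H2BC12 at 2.32 and H4C5 at -1.49. Histone genes of a type are near-identical, so single probes may read several of them.

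Promoters of 2 G2 and M phase genes are shown, 1 for a gene that differed and 1 for a gene that did not, each with the cell cycle homology region letters TTTGAA. These letters were found on either strand in 19 of the 39 G2 and M phase genes with a promoter entry (48.7%) and in 13.6% of the 27305 promoters. ASPM is at chr1:197146670-197146919 on the minus strand with the match, on the reverse strand as TTCAAA, at -113 to -108. KIF23 is at chr15:69414099-69414348 on the plus strand with the match at -55 to -50.
ASPM: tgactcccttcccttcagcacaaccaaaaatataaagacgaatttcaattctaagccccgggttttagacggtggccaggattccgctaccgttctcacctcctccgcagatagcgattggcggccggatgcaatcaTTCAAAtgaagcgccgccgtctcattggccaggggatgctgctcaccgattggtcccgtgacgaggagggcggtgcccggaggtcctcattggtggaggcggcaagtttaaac
KIF23: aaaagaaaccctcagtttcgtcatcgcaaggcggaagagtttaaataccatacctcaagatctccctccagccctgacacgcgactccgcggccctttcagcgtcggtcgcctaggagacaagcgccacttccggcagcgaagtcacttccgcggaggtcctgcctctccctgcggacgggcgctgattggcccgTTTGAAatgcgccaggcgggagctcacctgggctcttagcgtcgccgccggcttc

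**Figure D4:**
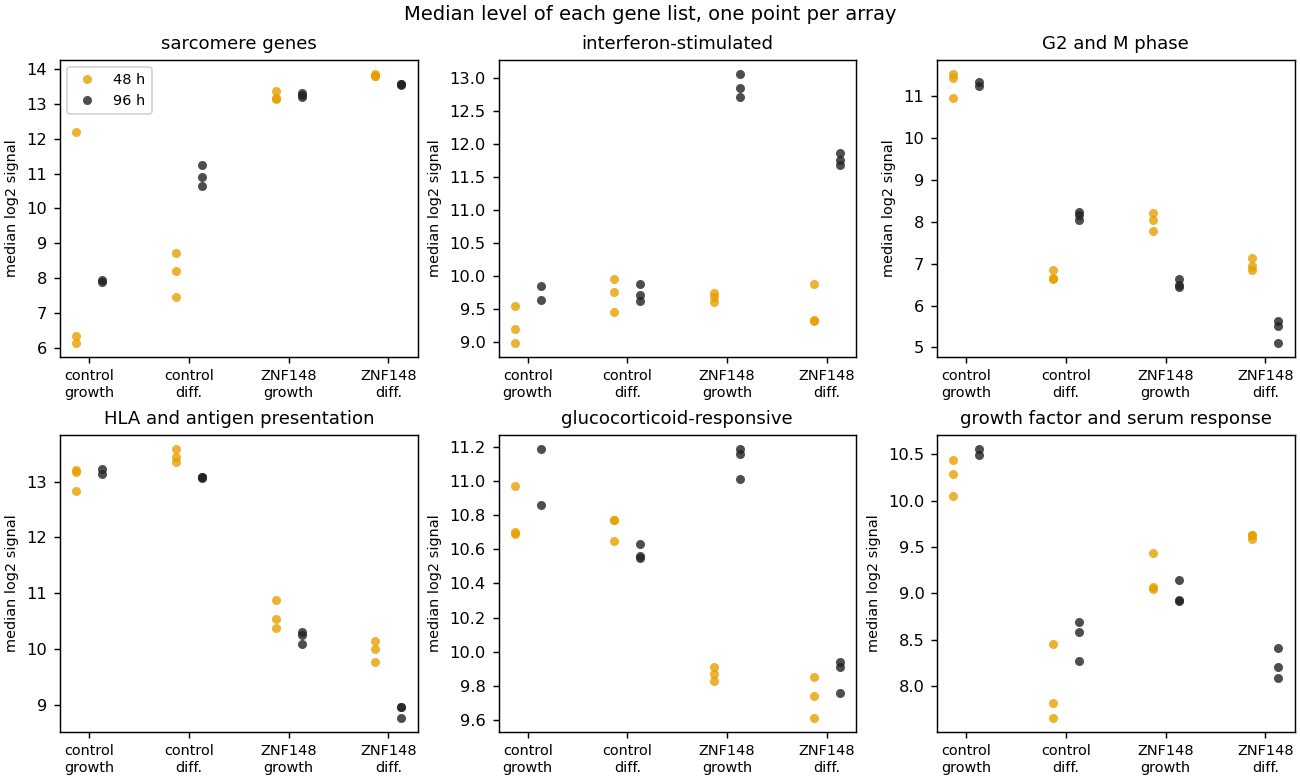
Median log2 signal of 6 gene lists on each array at 48 h (orange) and 96 h (black) in the 4 conditions, one point an array, with a y axis of its own in each panel. At 96 h the interferon-stimulated median was 12.71 to 13.07 with ZNF148 siRNA in growth media and 9.62 to 9.88 with control siRNA in differentiation media, and the G2 and M phase medians lay in the opposite order, at 6.44 to 6.63 and 8.04 to 8.24.

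Some genes known to respond to glucocorticoids or serum were higher with knockdown in growth media. Of 23 glucocorticoid-responsive genes, 7 were higher (30.4%, against 10.3% of all genes) and none lower (against 8.43%), with 11 within 2-fold. ANGPTL4, a lipase inhibitor, was at 13.93, 14.18 and 14.10 with knockdown and at 10.52, 10.39 and 10.19 in control cells, a difference of 3.70. ERRFI1, an inhibitor of EGF receptors, differed by 2.90, the clock gene PER1 by 2.79 and TSC22D3, the glucocorticoid-induced leucine zipper, by 2.52, while DUSP1 and CEBPD were within 2-fold. Of 29 growth factor and serum response genes, 13 were higher and none lower. The EGF receptor ligand AREG was not well above background on any control array and was at least 10.7-fold higher, and the immediate early genes EGR2 and FOS differed by 2.94 and 2.55. The response factor SRF, at 0.09, and the FGF target ETV5, at -0.19, were within 2-fold.

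Lipid, insulin and iron genes are described in turn, beside 10.3% of all genes higher and 8.43% lower. Of 26 cholesterol synthesis genes, 3 were higher (11.5%, a share near that of all genes), among them the sterol carrier STARD4 at 1.42. Of 25 above background on all 6 arrays, 19 were within 2-fold (76%, against 69.4% of all genes), with FDFT1, squalene synthase, at 0.07. In the fatty acid synthesis list of 16 genes, ACSS2 at 2.25 and ACACB at 1.48 were higher. TMEM97, listed there though not a synthesis enzyme, was lower at -1.23. In the insulin and IGF list, 7 of 25 were higher and 2 lower. DLK1, an imprinted membrane protein, was at 10.99, 10.72 and 10.90 with knockdown and at 6.41, 6.42 and 6.77 in control cells, a difference of 4.34, and the IGF-binding proteins IGFBP1, IGFBP3 and IGFBP2 differed by 3.08, 2.13 and 1.92, whereas IGFBP6 was lower at -1.46. Of 11 iron genes, 3 were lower, HMOX1, heme oxygenase, at -2.22, ACO1 at -1.40 and CYBRD1 at -1.39, and the transferrin receptor TFRC was within 2-fold at -0.15.

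Signalling, matrix and cytokine genes divided by gene, beside 10.3% of all genes higher and 8.43% lower. In the list of TGF-beta, ID and myostatin genes, 7 of 20 were higher and 2 lower. GREM1, a BMP antagonist, was at 13.46, 13.70 and 13.71 with knockdown in growth media and at 9.50, 9.58 and 9.21 in control cells. The groups were far apart, with a difference of 4.19, and ID3, an inhibitor of MYOD1 family proteins, differed by 2.32, while the receptor TGFBR2 at -1.79 and BMP2 at -1.80 were lower. In the Notch list, 2 of 14 were higher and 3 lower: LFNG and NRARP at 2.38 and 2.40, and the ligand DLL1 at -2.19, DLK2 at -1.43 and the receptor NOTCH3 at -1.28.

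Of 42 collagen and matrix genes, 11 were higher (26.2%, against 10.3% of all genes) and 8 lower (19%, against 8.43%). TIMP3, an inhibitor of metalloproteinases, was at 10.05, 10.14 and 10.13 with knockdown and at 4.86, 5.03 and 5.33 in control cells, a difference of 5.04. The metalloproteinases did not move together, with MMP1 at 3.58 and MMP3 at -3.65. COL15A1, a basement membrane collagen, was not well above background on any control array and was at least 18.7-fold higher, and FN1, fibronectin, differed by 0.00. In the smooth muscle list 9 of 16 were higher and 1 lower, led by gamma-smooth muscle actin ACTG2 at 11.73, 12.04 and 11.88 against 5.95, 6.74 and 6.44, with CCN2 at 3.91 and TAGLN at 2.61 also higher and the kinase MYLK lower at -1.85.

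Of 23 inflammatory cytokine genes, 14 were higher (60.9%, against 10.3% of all genes) and 2 lower (8.7%, against 8.43%). CCL20 and CXCL10 were not well above background on any control array and were at least 17.8-fold and 9.02-fold higher, and IL11 differed by 4.53. CXCL12, the ligand of CXCR4, was at 6.59, 6.96 and 6.81 with knockdown and at 10.71, 10.73 and 10.78 in control cells, a difference of -3.95, whereas CXCR4 was higher by 4.22. Of 20 p53 target genes, 1 was higher and 7 lower, among them the death receptor TNFRSF10B at -1.61 and the DNA damage sensors DDB2 at -1.54 and XPC at -1.47, while GDF15 was within 2-fold at 0.15. Of 19 quiescent and progenitor markers, CXCR4 was higher and 5 were lower, among them the receptor FGFR1 at -2.19 and CD34 at -1.32. All 33 respiratory chain genes tested were within 2-fold, with a median difference of -0.01.

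The largest differences outside the lists were led by A2M, a protease inhibitor of plasma, at 14.83, 14.98 and 15.02 with knockdown in growth media and at 5.70, 6.06 and 9.33 in control cells. The difference was 7.91, and replicate 3 of the control group stood above the other 2. DPYSL5, a neuronal collapsin response protein, differed by 6.94, the sulfotransferase HS6ST2 by 6.83 and the fructose transporter SLC2A5 by 6.28. The RNA VHRT differed by 6.22. In the other direction stood the pancreatic elastase genes CELA2B, at 5.12, 6.04 and 6.03 against 11.08, 11 and 11.02, and CELA2A, whose differences were -5.31 and -5.27. These 2 genes are near-identical neighbours whose probes may share RNA. The sialidase NEU4 was lower at -4.97, the WNT antagonist SFRP1 at -4.60, the small GTPase RASD1 at -4.37, the opsin RGR at -4.14 and the potassium channel KCND2 at -4.13.

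The same conditions at 48 h, on 6 other arrays, differed in more genes: 2593 (14.1%) were higher and 2703 (14.7%) lower with knockdown in growth media. Of the 1903 genes higher at 96 h, 1211 were also higher at 48 h (63.6%, and 46.7% of those higher at 48 h), and of the 1551 lower at 96 h, 1022 were also lower at 48 h (65.9%). The differences at 48 h and 96 h correlated at r = 0.656 across the 18398 genes, which are not independent replicates. When the difference at 48 h was subtracted from that at 96 h and tested in the same fit, 1469 genes (7.98%) lay higher at 96 h and 1238 (6.73%) lower, and 154 genes were called in opposite directions at the 2 times. Because the hours in differentiation media may be counted from another start than those in growth media, time since transfection and time in media cannot be told apart in these changes.

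The muscle gap was wider at 48 h, when 14.1% of all genes were higher and 14.7% lower. Then 109 of 152 muscle genes were higher and 3 lower, with a median of 2.70 against 1.31 at 96 h, and the sarcomere median difference was 4.53 against 1.96. Median sarcomere signal with knockdown in growth media was 13.14 to 13.37 at 48 h and 13.20 to 13.30 at 96 h, whereas in control cells in differentiation media it was 7.47 to 8.71 and 10.63 to 11.24. In the fit of all arrays, the difference was called smaller at 96 h for 12 sarcomere genes and larger for 1, NRAP at 2.29. That fit holds the array that widened the spread for muscle genes, so a muscle gene not called cannot be read as unchanged. Without that array, genes of any kind called lower for the change rose from 1238 to 1424, and those called higher from 1469 to 1498. The count of muscle genes higher at 48 h was 109 in the fit of 28 arrays too. MYOG differed by 2.90 and MEF2C by 4.13 at 48 h, both called. The change to 96 h, -2.01 and -2.15, did not pass the test for either in the fit of all arrays. ANKRD2 turned, from 3.52 at 48 h to -2.29 at 96 h, a change of -5.82. Of the 23 glucocorticoid-responsive genes, 5 were higher and 5 lower at 48 h, with a median difference of -0.44 against 0.48 at 96 h. The difference lay higher at 96 h than at 48 h for 15 of them and lower for none.

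Interferon-stimulated and cell cycle genes had other differences at 48 h, when 14.1% of all genes were higher and 14.7% lower. From 48 h to 96 h, the difference rose for 7.98% of all genes and fell for 6.73%. Of the 35 interferon-stimulated genes, 8 were higher and 4 lower at 48 h, with a median of 0.05 against 4.19 at 96 h, and the difference was larger at 96 h for 34 of them. STAT2 was lower at 48 h, at -1.31, and higher at 96 h, at 1.06. Of the 45 G2 and M phase genes, 26 were higher and none lower at 48 h, with a median of 1.41 against -1.61 at 96 h, and the difference fell for 39. Their median signal with knockdown in growth media was 7.78 to 8.21 at 48 h and 6.44 to 6.63 at 96 h, while in control cells in differentiation media it was 6.64 to 6.85 and 8.04 to 8.24, so levels went in opposite directions. ASPM went from 1.60 to -2.76. Of 22 HLA and antigen presentation genes, 20 were lower at 48 h, and the difference was higher at 96 h for 7 and lower for 1. HLA-C, at -1.68 at 48 h and 0.21 at 96 h, was one of the 7, while HLA-DRA was at -4.15 and -4.47. Each of the first 3 slides held 1 array of each group at 48 h, and within these slides the sarcomere median difference was 4.12, 4.82 and 4.52, the G2 and M phase median 1.23, 1.66 and 1.47, and the interferon-stimulated median -0.07, 0.13 and 0.06.

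**Figure D5:**
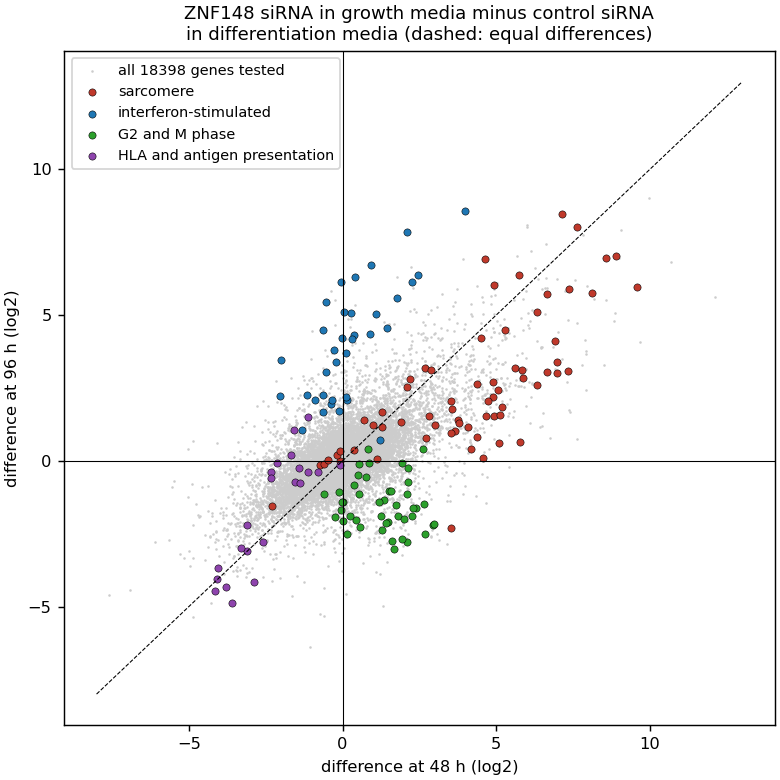
Difference between ZNF148 siRNA in growth media and control siRNA in differentiation media (log2) at 48 h on the x axis and at 96 h on the y axis for the 18398 genes tested, with 4 lists coloured and a dashed line where both are equal. Sarcomere genes lie to the right and mostly below the line, interferon-stimulated genes lie high near 0 at 48 h, and G2 and M phase genes lie at lower right.

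Values in the other 96 h groups place each route beside its neighbours. Against nontargeting siRNA in growth media, which is 2 arrays and is the shared control of both statements that follow, knockdown in growth media called 2264 genes higher (12.3%) and 2286 lower (12.4%), and differentiation media alone called 1252 higher (6.81%) and 1517 lower (8.25%). Of the 66 sarcomere genes, knockdown raised 56 and lowered 2, with a median difference of 5.04, and differentiation media raised 32 and lowered 2, with a median of 2.52. These sarcomere counts come from the fit of all arrays, in which the spread for muscle genes was widened. Of the 45 G2 and M phase genes, each route lowered 44, with medians of -4.80 and -2.96. Of the 35 interferon-stimulated genes, knockdown raised 35, with a median of 3.81, whereas differentiation media raised 2 and lowered 4, with a median of 0.02. Of the 23 glucocorticoid-responsive genes, knockdown raised 4 and lowered 6, and differentiation media raised 4 and lowered 12. No test was made of one of these against the other, since the direct comparison of the routes is that test.

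The group with both treatments, ZNF148 siRNA in differentiation media, shared 1 factor with each route. Knockdown in growth media differed from it in 910 genes higher (4.95%) and 266 lower (1.45%), and it differed from control cells in differentiation media in 1938 genes higher (10.5%) and 2357 lower (12.8%). Its median sarcomere signal was 13.53 to 13.58, and no sarcomere gene was higher and 1 was lower with knockdown in growth media than with both treatments. In the group with both treatments, the interferon-stimulated median was 11.69 to 11.87. Of 35 genes, 32 were higher with both treatments than in control cells in differentiation media, and 19 were higher with knockdown in growth media than with both. Its HLA median was 8.76 to 8.97, below the 10.09 to 10.31 of knockdown in growth media and the 13.07 to 13.09 of control cells in differentiation media. Of the 23 glucocorticoid-responsive genes, 11 were higher and none lower with knockdown in growth media than with knockdown in differentiation media, at a list median of 0.86.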

How the data were processed

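RNA of 29 cultures was hybridized to Agilent 1-colour arrays. The authors deposited each spot's background-subtracted intensity with well-above-background and outlier flags. The file headers name Feature Extraction 10.7.3.1, whereas the methods name another version. The authors also deposited log2 normalized values in a table, which served here as an alternative. Control spots (2075 of 62976) and outlier spots were removed, spots averaged per probe, and log2 intensity was quantile normalized over all arrays. Probes (31104 of 58201) were named through RefSeq, and the test took the 38714 that 2 or more arrays measured well above background. A gene was its brightest tested probe. limma 3.58.1 in R 4.3.3 (with data.table, version 1.17.8) fitted 10 group means with Benjamini-Hochberg adjustment over all probes. "At least" folds set a group below background at the lowest signal well above background. "Within 2-fold" needed a 95% interval inside 2-fold and signal on all 6 arrays. The arrays' number limits the precision.

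Replicate numbers were not used to pair the arrays, and correlations of same-numbered deviations at 96 h were 0.0333, 0.121 and 0.0613. The methods mention paired samples, and these low values cannot settle whether cultures were paired. Named genes were ZNF148, the myogenic factors, the 10 largest differences in each direction without overlap, and from each list up to 4 called genes in each direction and 3 of the closest. Members and lists were chosen with earlier results of these data known. In simulated data with independent noise, 200 probes were changed by clearly more than 2-fold. Of these, 166 (83%) were recovered, with 5 false calls among 38157 probes. The simulation had no noise shared within arrays or slides and far fewer changed probes, so it gives no error rate for the calls above. Alternatives were other scalings, background corrections, filters, variance models, blocks, probe choices, thresholds, the methods' t-test and leaving out each array. At 96 h, slide 1 held replicates 1 and 3 of the knockdown group and replicate 3 of the control group, and the other arrays lay on slides of 1 group. Some genes that the rule names are not reported here.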

Additional observations from a re-analysis of the deposited data

Results flagged for a closer look

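All results listed here are differences between the routes that changed between 48 h and 96 h, by the limma test of the 96 h difference minus the 48 h difference (Benjamini-Hochberg adjusted, more than 2-fold). Of 18398 genes tested, the route difference lay higher at 96 h for 1469 (7.98%) and lower for 1238 (6.73%). In opposite directions at the 2 times, 154 genes were called, 86 of them higher at 48 h and lower at 96 h and 68 the reverse. Against 7.98% of all genes, the route difference lay higher at 96 h for 34 of 35 interferon-stimulated genes and 7 of 22 HLA and antigen presentation genes. Against 6.73% of all genes, it lay lower for 39 of 45 G2 and M phase genes and 12 of 66 sarcomere genes. The sarcomere count comes from the fit of all arrays, in which an array outside the comparison widened the spread for muscle genes.

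Among the named genes called in opposite directions, the change was -5.82 for ANKRD2 and -3.94 for KCNJ12, both muscle genes. It was -4.36 for ASPM, -4.70 for CDC25C, -4.87 for KIF14 and -4.61 for NEK2, all of mitosis, and -2.60 for the histone H3C2. The sialidase NEU4 changed by -6.27 and the progenitor marker CD34 by -3.54. Changes in the other direction were 2.64 for NLRC5, 2.36 for STAT2 and 2.61 for TAP1.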

How the results depend on the processing

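Normexp background correction lowered most counts, to 1153 genes higher and 893 lower at 96 h with 23 G2 and M phase genes lower, to 1728 and 1707 at 48 h with 17 G2 and M phase genes higher, and to 881 genes whose difference lay higher at 96 h than at 48 h. Without a fold threshold, 4476 genes were higher and 5442 lower at 96 h, so 45.1% of called genes were higher against 55.1%, 16 HLA genes were lower, 5334 and 6259 genes were called at 48 h, and 3849 and 3520 for the change between times. With the replicate number as a block, 1903 genes were higher and 1550 lower at 96 h, 2583 and 2696 at 48 h, and 1455 and 1231 for the change, no count above moved by over 1.5 times, and 2 single-gene calls were lost. A slide block gave 1987 and 1573, the authors' normalized values 1907 and 1543, and the methods' t-test 1967 and 1567 at their threshold and 1889 and 1507 after Benjamini-Hochberg; that t-test was not run on the change between times. Leaving out each array gave 1805 to 1868 higher and 1439 to 1602 lower genes at 96 h, 9551 to 9680 genes within 2-fold, 58 muscle and 29 sarcomere genes higher, 34 interferon-stimulated genes higher, 34 to 35 G2 and M phase and 10 HLA genes lower. At 48 h it gave 2468 to 2603 and 2617 to 2857 genes, 107 to 108 muscle genes, 26 to 27 G2 and M phase genes and 19 to 20 HLA genes, and for the change 1354 to 1624 and 1100 to 1269 genes. Single genes that turned direction were PAX7 at 96 h (-3.09 with the stricter filter on dim probes, -1.44 with probes averaged), the changes of PAX7 (-1.60) and HLA-E (1.27) with probes averaged, and those of CXCR4 (1.41) and SLC2A5 (2.04) with normexp. With normexp, calls at 96 h were also lost for NCAM1 (0.71), CDC25C (-0.64), NEK2 (-0.62), CD34 (-0.71), NLRC5 (0.69), PECAM1 (-0.79), VWF (0.48), MEF2B (-0.99) and GINS3 (0.98), and with a slide block for ANKRD2 (-1.88) and NLRC5 (0.88). CYBRD1 was at -0.24 at 96 h with probes averaged, and H3C11 at -0.91 without replicate 1 of the control group. The causes were not tested. Genes near background carry the widest errors.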
